A study of Mus musculus with 4 samples.

Results

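The interleukin-1 (IL-1) family was described through 9 genes, 5 coding for ligands (Il1a, Il1b, Il1rn, Il33 and Il18) and 4 coding for receptor chains (Il1r1, Il1r2, Il1rap and Il1rl1). Each was found by its symbol among the 32285 genes of the count matrices, and all 9 were present in all 4 libraries. The nuclei were taken from the back skin of wild-type mice of the inbred C57BL/6 strain that were 8 weeks old. In the wounded group, the skin of 2 mice was taken 1 day after wounds through its full thickness had been cut. In the unwounded group, intact skin was taken from 2 other mice. Each mouse gave 1 library, prepared with 10x Genomics Single Cell 3' v3.1 chemistry from minced and ground tissue without sorting, so nuclei of all skin cell types could enter.

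IL-1 alpha, IL-1 beta, IL-33 and IL-18 are alarm cytokines. IL-1 alpha and IL-33 are held ready inside epithelial and stromal cells and are set free when a cell is damaged, whereas IL-1 beta and IL-18 are made as precursors that inflammatory caspases cut. Each ligand binds a specific receptor chain, which then recruits an accessory chain (Il1rap for IL-1 and IL-33, Il18rap for IL-18) and signals through the adaptor MyD88 and IRAK kinases to NF-kappaB. The pathway is held back by a receptor antagonist that occupies the IL-1 receptor without signalling and by a decoy receptor that binds IL-1 without a signalling domain. In skin, keratinocytes are a known store of IL-1 alpha and of its antagonist.

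On GRCm38, Il1a lay on chromosome 2 (129299610 to 129309972, minus strand) with Il1b beside it (129364570 to 129371139, minus strand), 54.6 kb apart. Il1rn lay elsewhere on chromosome 2 (24336853 to 24351494, plus strand), next to the genes of the IL-36 ligands. Il33 was on chromosome 19 (29925114 to 29960718, plus strand), Il18 on chromosome 9 (50554827 to 50581840, plus strand) and Il1rap on chromosome 16 (26581704 to 26730117, plus strand). The other receptor genes stood in a row on the plus strand of chromosome 1, Il1r2 (40074079 to 40125231), Il1r1 (40225080 to 40317257) and Il1rl1 (40429570 to 40465415), in a cluster of 478 kb that also holds Il1rl2, Il18r1 and Il18rap. Il1b overlapped the antisense gene Il1bos, Il1a overlapped Gm14023, Il18 overlapped Bco2 and Tex12, Il1r2 overlapped Gm16894 and Il1rap overlapped Gm20319, all on the opposite strand. Whether counting used the strand is not given in the sources used here, so reads of these 5 members and of their antisense neighbours may not be separable.

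The 250 bases before the transcription start are shown for 5 of the 9 genes, as examples of ligand genes and, with Il1r2 alone, of receptor genes. Capitals mark matches to 3 motifs searched on both strands: TATAAA, a core promoter box, TGANTCA, of the AP-1 type, and GGANTTTCC, of the NF-kappaB type. Sequences are from RefSeq (GRCm38.p6), written 5′ to 3′ on the strand of the gene.
Il1a (chr2:129309973-129310222, minus strand): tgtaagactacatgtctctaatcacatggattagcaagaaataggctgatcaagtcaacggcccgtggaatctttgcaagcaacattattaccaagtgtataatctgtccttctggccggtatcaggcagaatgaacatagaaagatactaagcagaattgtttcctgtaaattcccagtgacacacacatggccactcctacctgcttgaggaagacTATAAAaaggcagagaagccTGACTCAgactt
Il1b (chr2:129371140-129371389, minus strand): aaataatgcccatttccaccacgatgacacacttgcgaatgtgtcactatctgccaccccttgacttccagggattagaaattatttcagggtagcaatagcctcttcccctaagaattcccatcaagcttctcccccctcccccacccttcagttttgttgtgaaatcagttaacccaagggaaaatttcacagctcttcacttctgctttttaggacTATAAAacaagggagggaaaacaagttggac
Il1rn (chr2:24336610-24336859, plus strand): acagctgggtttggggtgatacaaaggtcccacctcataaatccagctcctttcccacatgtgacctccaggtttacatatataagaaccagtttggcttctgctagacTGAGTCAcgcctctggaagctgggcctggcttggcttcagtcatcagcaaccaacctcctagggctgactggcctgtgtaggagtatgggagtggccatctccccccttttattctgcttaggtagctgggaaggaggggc
Il33 (chr19:29945540-29945789, plus strand, the inner of its 2 start sites): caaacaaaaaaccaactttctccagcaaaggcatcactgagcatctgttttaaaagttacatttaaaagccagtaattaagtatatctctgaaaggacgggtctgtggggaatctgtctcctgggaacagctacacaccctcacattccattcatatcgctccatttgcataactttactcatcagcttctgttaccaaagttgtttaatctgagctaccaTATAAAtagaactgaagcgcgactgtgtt
Il1r2 (chr1:40085843-40086092, plus strand): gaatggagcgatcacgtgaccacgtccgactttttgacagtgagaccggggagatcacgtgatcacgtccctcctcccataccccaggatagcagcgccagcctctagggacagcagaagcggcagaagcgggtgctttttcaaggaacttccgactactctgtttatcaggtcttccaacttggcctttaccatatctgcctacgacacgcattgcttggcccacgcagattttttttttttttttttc
In Il1a, TATAAA occupied bases 32 to 27 before the start and TGACTCA bases 12 to 6. Il1b held TATAAA 31 to 26 bases before its start, and Il33 29 to 24 bases before its inner start. Il1rn held TGAGTCA 141 to 135 bases before its start. Across 14 windows of the 9 genes, 8 held none of the motifs, among them every window of the 4 receptor genes, and no window held GGANTTTCC. Of 32851 RefSeq promoters cut to the same 250 bases, 12.4% held TATAAA, 6.75% TGANTCA and 1.07% GGANTTTCC. The motifs do not overlap in these windows, and a match is a description of the letters only.

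The wounded libraries held 2297 and 3706 nuclei with 1182709 and 1355002 UMIs (unique molecules), against 6575 and 9001 nuclei with 8267547 and 6460708 UMIs in the unwounded libraries. Levels are given as CPM, the UMIs of a gene per 1000000 UMIs of the library or class. The wounded libraries stood apart in RNA composition. Malat1, a nuclear non-coding RNA, made up 0.120% and 0.295% of wounded UMIs, against 9.39% and 8.26% of unwounded UMIs. Olfactory and vomeronasal receptor genes, known from sensory neurons of the nose, reached 0.551 and 0.508 CPM per kb of gene in the wounded libraries, against 0.00731 and 0.0103 CPM per kb in the unwounded ones. Each member's wounded CPM is divided, too, by what this density would give over its length, and the ratio is called observed over length-expected. For 2702 genes with spans of 5 kb or more and next to no counts in unwounded skin, called nearly silent, this ratio had a median of 0.979 and 1.02 and a 95th percentile of 2.86 and 2.85 in wounded replicates 1 and 2. A count of 0 allowed up to 2.54 and 2.21 CPM in the wounded libraries and 0.363 and 0.464 CPM in the unwounded ones, for counting error only. Pairs of libraries shared between 10 and 58 barcodes.

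In wounded skin the alarm cytokines Il33 and Il1b stood higher and the receptor genes Il1r2 and Il1rap lower than in unwounded skin. Il1r1 was called lower too, but not in nuclei with a Malat1 UMI or after length-expected counts were subtracted. Il1b was 17.5-fold and Il33 9.31-fold higher by the ratio of mean CPM, and the decoy receptor Il1r2 fell to 0.441 of its unwounded mean. Length-expected counts are part of these ratios. For Il1b the length-expected level alone was 3.62 and 3.34 CPM in the wounded libraries, against an unwounded mean of 0.672 CPM. For Il33 it was 19.6 and 18.1 CPM, against an unwounded mean of 8.50 CPM. Of the 8 members with enough counts to be tested, edgeR's quasi-likelihood test on library sums called 3 higher (Il1b, Il1rn and Il33) and 3 lower (Il1r1, Il1r2 and Il1rap) at an adjusted p under 0.05, and 2 did not pass (Il18 and Il1rl1). Among all 20915 genes tested, 47.0% were called higher and 37.4% lower, so being called is common here and the members' counts lie near this background. Over all genes the median log2 fold change stood at 0.39, with 9828 genes called higher and 7829 lower. DESeq2, which differs in scaling, test and genes tested (29381), called 11238 higher and 5872 lower, and edgeR with RLE size factors, where only the scaling differs, called 10297 higher and 7137 lower. TMM scaling, with factors of 1.33 and 1.31 for wounded and 0.782 and 0.732 for unwounded libraries, made fitted fold changes of all nuclei lower than ratios of raw CPM. The share of all genes whose groups do not overlap was not counted, so a lack of overlap is given below as a description only. In sums over a library, fewer cells of a type and less RNA per cell cannot be told apart. Nothing in the labels goes beyond 1 mouse per library. With only 2 mice per group, edgeR's p-values rest on a spread estimated with information shared across genes, not on the mice alone.

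**Figure D1:**
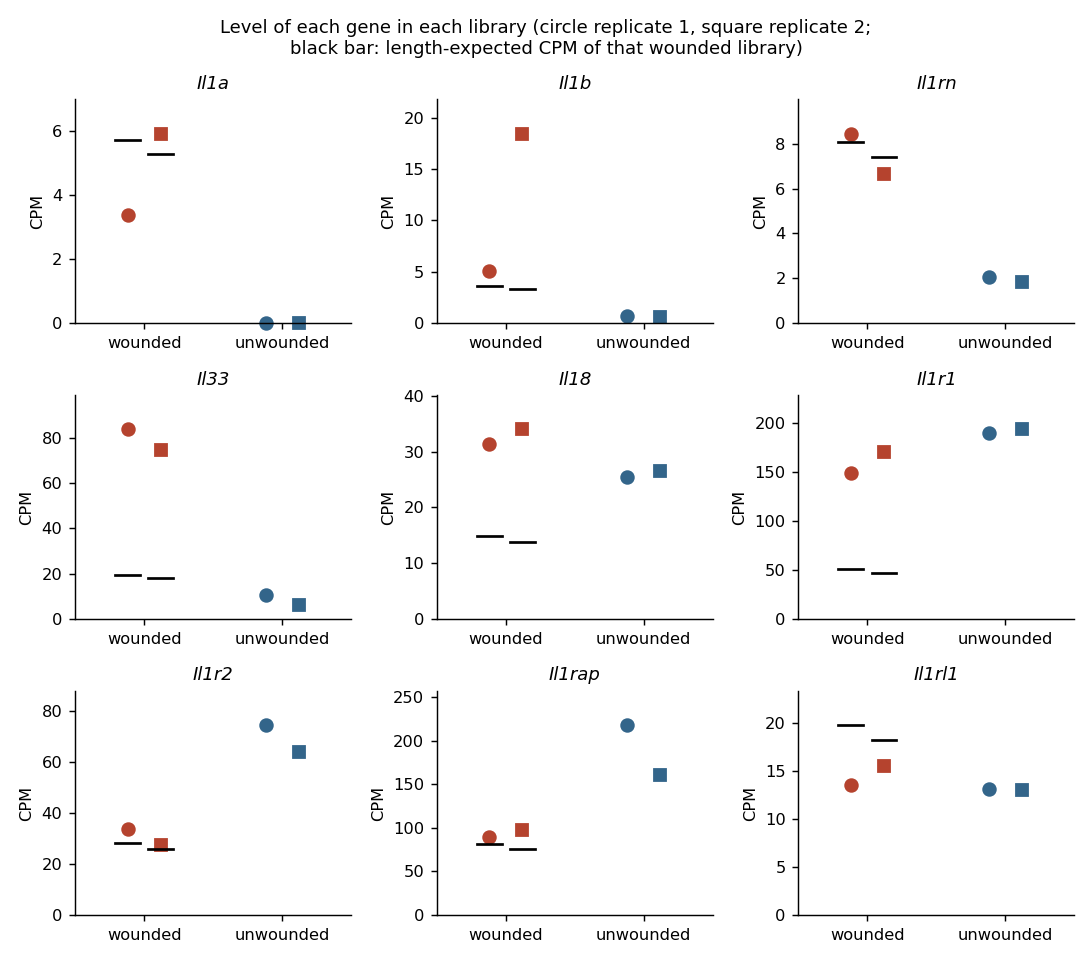
CPM of each of the 9 genes in the 2 wounded libraries (red, left) and the 2 unwounded libraries (blue, right), with circles for replicate 1 and squares for replicate 2, and black bars at the length-expected CPM of each wounded library. Wounded points lie above unwounded points for Il1a, Il1b, Il1rn, Il33, Il18 and Il1rl1 and below them for Il1r1, Il1r2 and Il1rap. For Il33, Il18 and Il1r1 they also lie well above the black bars. The values are raw CPM, and the fitted log2 fold changes of Il18 and Il1rl1 were below 0.

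Il1a, which codes for the IL-1 alpha alarmin, had 3.38 and 5.90 CPM in wounded libraries (4 and 8 UMIs), against 0 UMIs in both unwounded libraries. The wounded mean was at least 23.2-fold higher than the floor of 3 counts over the unwounded group. Both wounded libraries stood above both unwounded ones, but the gene did not pass the filter on low counts and was not tested by edgeR. Without that filter edgeR called it higher (adjusted p = 4.22e-06), as did DESeq2 (adjusted p = 0.00182). Such calls were common, since these fits called 13700 and 11238 of 29381 genes higher. The wounded level was 0.593 and 1.12 times the length-expected CPM, within the range of nearly silent genes.

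Il1b, which codes for IL-1 beta, had 5.07 and 18.5 CPM in wounded libraries (6 and 25 UMIs), against 0.726 and 0.619 CPM in unwounded libraries (6 and 4 UMIs). The groups did not overlap, and wounded replicate 2 was the highest. The mean was 11.8 ± 9.46 CPM in wounded and 0.672 ± 0.0754 CPM in unwounded skin (SD, n = 2 each). The log2 fold change was 3.33 ± 0.63 (SE; edgeR adjusted p = 2.17e-04), but without wounded replicate 2 it was 2.28 with edgeR adjusted p = 0.0888. The level was 1.40 and 5.53 times length-expected. Wounded replicate 1 thus lay within the range of nearly silent genes, below their 95th percentile, and wounded replicate 2 above their 99th. The antisense gene Il1bos had 2.54 and 0.738 CPM in wounded and 0.242 and 0.310 CPM in unwounded libraries.

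IL-1 beta is known as a product of neutrophils and macrophages, and markers of these cells were read beside it. Among 12 defining neutrophil markers, 9 were tested, 7 were higher and 1 was lower, with a summed level of 222 and 231 CPM in wounded and 28.3 and 36.4 CPM in unwounded libraries. This sum was 1.67 and 1.88 times length-expected, and none of the markers was at 0 in a wounded library, whereas 5 and 4 of them were at 0 in the unwounded ones. Among 13 defining macrophage and monocyte markers, 12 were tested, 1 was higher and 10 were lower, with 504 and 492 CPM in wounded and 558 and 608 CPM in unwounded libraries. Among 10 further markers of these cells, 9 were tested, 3 were higher and 3 lower. Their sum ran the other way, with 556 and 508 CPM in wounded and 422 and 408 CPM in unwounded libraries. Of 10 further neutrophil markers, 8 were tested, 3 were higher and 1 was lower, with 462 and 373 CPM in wounded and 161 and 172 CPM in unwounded libraries. Of the 6 and 25 wounded barcodes with an Il1b UMI, 0 and 2 also held a neutrophil marker UMI, against 10.1% and 8.07% of all wounded nuclei. No wounded barcode held more than 1 Il1b UMI. The part of these cells in the Il1b difference was not tested.

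Il1rn, which codes for the IL-1 receptor antagonist, had 8.46 and 6.64 CPM in wounded libraries (10 and 9 UMIs), against 2.06 and 1.86 CPM in unwounded libraries (17 and 12 UMIs). The groups did not overlap, with a log2 fold change of 1.14 ± 0.47 (SE; edgeR adjusted p = 0.0356), or 0.75 above the median of all genes. This call was lost when any 1 library was left out, with edgeR adjusted p between 0.0672 and 0.228. The wounded level was 1.05 and 0.894 times length-expected, within the range of nearly silent genes.

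Il33, which codes for the nuclear alarmin IL-33, had 83.7 and 74.5 CPM in wounded libraries (99 and 101 UMIs), against 10.6 and 6.35 CPM in unwounded libraries (88 and 41 UMIs). Both wounded libraries were far above both unwounded ones, at 79.1 ± 6.48 and 8.50 ± 3.04 CPM (SD, n = 2 each). The log2 fold change was 2.42 ± 0.24 (SE; edgeR adjusted p = 6.23e-07), and it held in every alternative fit of all nuclei, between 1.76 and 3.66. The wounded level was 4.27 and 4.12 times length-expected, or 64.1 and 56.5 CPM above it. Both ratios lay between the 95th percentile of the nearly silent genes and their 99th, which was 5.01 and 5.28.

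Il18, which codes for IL-18, had 31.3 and 33.9 CPM in wounded libraries, against 25.4 and 26.5 CPM in unwounded libraries. Raw CPM did not overlap and was 1.26-fold higher in wounded skin by the ratio of means, whereas the fitted log2 fold change, on TMM-scaled counts, was -0.45 ± 0.22 (SE; edgeR adjusted p = 0.0686). The direction therefore depended on scaling. The wounded level was 2.10 and 2.48 times length-expected.

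**Figure D2:**
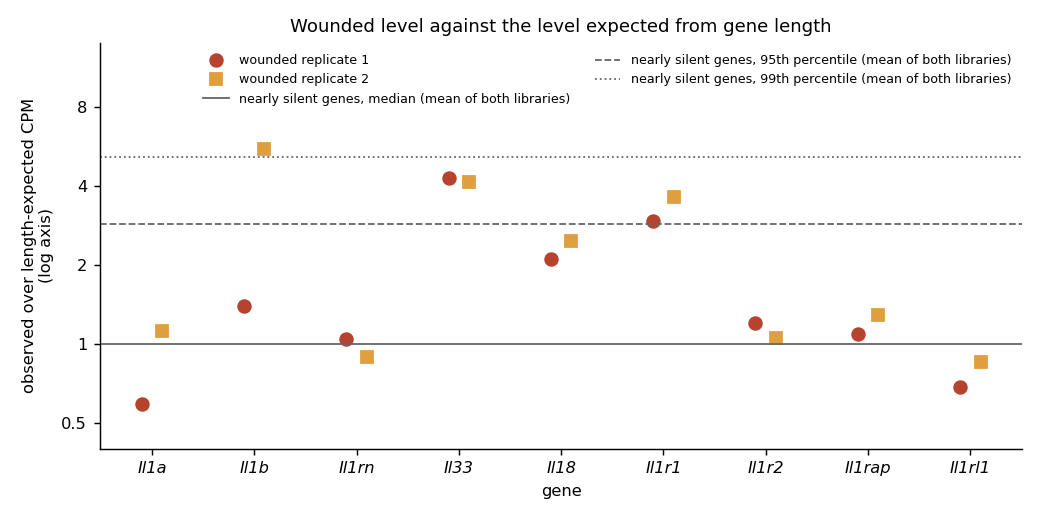
Observed over length-expected CPM (log axis) for the 9 genes in wounded replicate 1 (circles) and wounded replicate 2 (squares), with lines at the median, the 95th and the 99th percentile of 2702 nearly silent genes. Il33 and Il1r1 lie above the 95th percentile in both libraries, Il1b in wounded replicate 2 alone, and Il1a, Il1rn, Il1r2, Il1rap and Il1rl1 lie near or below 1.

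Among the receptor chains, Il1r1 codes for the signalling IL-1 receptor. It had 149 and 170 CPM in wounded libraries (176 and 230 UMIs), against 189 and 193 CPM in unwounded libraries (1563 and 1247 UMIs). Both wounded libraries were lower, with a log2 fold change of -1.05 ± 0.14 (SE; edgeR adjusted p = 1.01e-05). The wounded level was 2.93 and 3.63 times length-expected, the highest ratio among the receptors. The call was lost in nuclei with a Malat1 UMI (log2 fold change -0.049, edgeR adjusted p = 0.803), and the sign turned after length-expected counts were subtracted (0.0089, edgeR adjusted p = 0.970).

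Il1r2, the decoy receptor, had 33.8 and 27.3 CPM in wounded libraries, against 74.4 and 64.1 CPM in unwounded libraries. The groups did not overlap, and the log2 fold change was -1.97 ± 0.19 (SE; edgeR adjusted p = 4.56e-07). Its wounded level was 1.20 and 1.05 times length-expected. Il1rap, the accessory chain shared by the IL-1, IL-33 and IL-36 receptors, had 89.6 and 97.4 CPM in wounded libraries, against 218 and 161 CPM in unwounded libraries. Its log2 fold change was -1.79 ± 0.16 (SE; edgeR adjusted p = 2.12e-07), and its wounded level was 1.10 and 1.29 times length-expected. Both genes were called lower in every alternative fit of all nuclei, including the one after subtraction of length-expected counts.

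Il1rl1, which codes for the IL-33 receptor ST2, had 13.5 and 15.5 CPM in wounded libraries, against 13.1 and 13 CPM in unwounded libraries. Raw levels were close, and the fitted log2 fold change was -0.62 ± 0.30 (SE; edgeR adjusted p = 0.0636). The wounded level, at 0.685 and 0.852 times length-expected, was not separable from the level of nearly silent genes at this depth.

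Fibroblast markers were also lower in wounded skin, as were markers of some other classes. Of the 12 defining fibroblast markers 11 were lower and 0 higher, with 822 and 976 summed CPM in wounded libraries and 12479 and 12729 CPM in unwounded ones. All 12 defining skeletal muscle markers and 8 of 9 tested adipocyte markers were lower as well. By contrast, 7 of 10 blood endothelial markers and 7 of 8 tested T cell markers were higher, against 47.0% of all genes tested. The summed levels of these lists were 1.54 and 1.67 (endothelial) and 1.66 and 1.59 (T cell) times length-expected. Of 8 further endothelial markers 4 were higher and 2 lower, and of 8 further T cell markers 7 were higher and 1 lower. At least 1 fibroblast marker UMI was present in 29.0% and 26.4% of wounded nuclei and in 99.3% and 99% of unwounded nuclei. The part of these markers in the receptor differences was not tested over all nuclei, and levels within marker-defined barcodes follow.

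Per kb of gene, the order of mean levels in wounded skin was Il33 (2.22 CPM per kb), Il1b (1.79), Il1r1 (1.73), Il18 (1.21), Il1rap (0.630), Il1r2 (0.597), Il1rn (0.516), Il1a (0.448) and Il1rl1 (0.405). In unwounded skin it was Il1r1 (2.07 CPM per kb), Il1r2 (1.35), Il1rap (1.27), Il18 (0.960), Il1rl1 (0.364), Il33 (0.239), Il1rn (0.134), Il1b (0.102) and Il1a (0). These orders depend on gene span and are not orders of abundance. By mean CPM, Il1r1 (159) stood above Il1b (11.8) in wounded skin, and Il1rap (189) above Il1r2 (69.2) in unwounded skin. The libraries of Il1b overlapped those of Il33, Il1r1 and Il18 in wounded skin, and the libraries of Il1r2 overlapped those of Il1rap in both groups. The lower end of the wounded order was not resolved, since the libraries of Il1a overlapped those of Il1r2, Il1rn and Il1rl1, and those of Il1rn overlapped those of Il1r2.

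Barcodes were put into cell classes by defining markers, none of which is an IL-1 family gene. A class needed at least 3 marker UMIs from at least 2 markers, at least 0.5% of the barcode's UMIs, and 3 times the marker UMIs of any other class. In wounded libraries this gave 81 and 163 keratinocyte-like and 23 and 38 fibroblast-like barcodes, and under 20 of every other class. In unwounded libraries it gave 50 and 74 keratinocyte-like and 4301 and 5640 fibroblast-like barcodes. Only these 2 classes could be compared between groups. Most wounded nuclei, 93.9% and 93.5%, fell into no class. Of 10 further markers not used to assign barcodes, 7 were at least 2-fold higher in wounded keratinocyte-like and 3 in wounded fibroblast-like barcodes than in the other wounded barcodes, against 8 and 6 in unwounded skin.

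In fibroblast-like barcodes Il33 again stood higher after wounding. It had 7 and 2 UMIs in wounded libraries, at 691 and 148 CPM, against 71 and 29 UMIs in unwounded libraries, at 13 and 6.91 CPM. The log2 fold change was 3.89 ± 0.75 (SE; edgeR adjusted p = 1.12e-05), in a fit where 3.27% of 11049 genes were called higher and 13.9% lower and the median log2 fold change of the genes tested was -3.98. Without wounded replicate 1 or wounded replicate 2 the log2 fold change was 2.43 or 4.40, with edgeR adjusted p of 0.429 or 0.0740, so the call needed both wounded libraries. Without either unwounded library no member passed the low-count filter in this class.

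The IL-1 receptor genes were read in the same barcodes. Il1r1 had 296 and 668 CPM in wounded libraries (3 and 9 UMIs), against 226 and 225 CPM in unwounded libraries, a log2 fold change of -0.18 ± 0.47 (SE; edgeR adjusted p = 0.776). Its mean CPM was higher in wounded barcodes, at 482 against 226 CPM in unwounded ones, while the fitted value was below 0, so no direction is given for Il1r1 in this class. Il1rap had 197 and 223 CPM in wounded libraries, against 277 and 193 CPM in unwounded ones, with a log2 fold change of -1.50 ± 0.60 (SE; edgeR adjusted p = 0.0651). Il1r2 had 0 UMIs in both wounded libraries, which allows up to 127 CPM in their pooled 23608 UMIs, against 98.1 and 77.2 CPM in unwounded libraries. Although the fit called Il1r2 lower (edgeR adjusted p = 0.0161), that limit lies above the unwounded level, so no difference was detectable at this depth. Il18 also had 0 wounded UMIs in this class.

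In keratinocyte-like barcodes Il33 had 7 and 7 UMIs in wounded libraries, at 241 and 127 CPM, against 1 and 1 UMI in unwounded libraries, at 12.3 and 18.8 CPM. The wounded libraries stood above the unwounded ones, but Il33 did not pass the low-count filter of this class, in which 1199 genes were tested, 32.0% of them called higher and 22.4% lower. Over all nuclei, 4 of the 15 defining keratinocyte markers were called higher and 6 lower, and their summed level was 1108 and 1612 CPM in wounded and 543 and 902 CPM in unwounded libraries, with Krt15 at 0 in both wounded ones. The 10 further keratinocyte markers summed to 708 and 753 CPM in wounded and 911 and 781 CPM in unwounded libraries. Il1r1 was the only member tested there, at 206 and 109 CPM in wounded libraries and 209 and 245 CPM in unwounded ones, with a log2 fold change of 0.08 ± 0.54 (SE; edgeR adjusted p = 0.907). Its mean CPM was lower in wounded barcodes, at 157 against 227 CPM in unwounded ones, so here too the direction depended on scaling. The antagonist gene Il1rn had 0 wounded UMIs in keratinocyte-like barcodes, which allows up to 35.6 CPM in the pooled class, against 24.6 and 37.6 CPM in unwounded libraries. Il1b had 0 and 2 wounded UMIs and no unwounded UMI in this class.

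A wider class rule was added after the data had been seen. It asked whether a barcode held more marker UMIs than expected from free RNA, that is, from the level of those markers in barcodes led by other classes. Under it, Il33 in keratinocyte-like barcodes had 179 and 109 CPM in wounded libraries (7 and 8 UMIs), against 31.3 and 18.2 CPM in unwounded libraries (8 and 3 UMIs), with a log2 fold change of 2.71 ± 0.62 (SE; edgeR adjusted p = 5.22e-05, with 29.1% of 3070 genes called higher and 21.1% lower). In fibroblast-like barcodes it had 552 and 187 CPM in wounded libraries, against 12.8 and 6.54 CPM in unwounded ones, a log2 fold change of 4.08 ± 0.74 (SE; edgeR adjusted p = 0.00384, with 3.99% of 10443 genes called higher and 11.1% lower). Il1r2 again had 0 wounded UMIs in fibroblast-like barcodes, which allows up to 92.7 CPM, against 98.9 and 83.5 CPM in unwounded libraries. That limit lies within the unwounded levels, so no difference was detectable at this depth, although edgeR called the gene lower (adjusted p = 0.0327). The wound effect on Il33 did not differ detectably between the classes under either rule. The difference, keratinocyte-like minus fibroblast-like, was -0.73 ± 1.56 (SE; edgeR adjusted p = 0.833) under the first rule and -1.81 ± 0.96 (SE; edgeR adjusted p = 0.325) under the added one. Neither Il1r1 nor Il1rap passed this test, at edgeR adjusted p of 0.546 and 0.954 under the first rule, and of 1874 genes tested 7.36% were called higher and 0.854% lower.

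The unwounded libraries, which are deeper, showed where receptors and ligands lie among cell classes. Under the first rule 6 classes had at least 20 barcodes in both libraries, and 2 members, Il1r1 and Il1rap, were tested among 3457 genes. Relative to the mean of the other classes, Il1r1 was higher in fibroblast-like barcodes (log2 difference 2.07 ± 0.25, edgeR adjusted p = 1.32e-11) and in keratinocyte-like ones (1.82 ± 0.41, edgeR adjusted p = 2.73e-04). Il1rap was higher in the same classes, by 1.97 ± 0.25 (edgeR adjusted p = 2.22e-11) in fibroblast-like and 1.28 ± 0.43 (edgeR adjusted p = 0.0202) in keratinocyte-like barcodes. Both were lower in skeletal muscle-like barcodes, by -1.35 ± 0.43 and -1.45 ± 0.41 on the log2 scale (edgeR adjusted p = 0.00699 and 0.00204). Among all genes, 23.7% were called higher in fibroblast-like, 15.3% higher in keratinocyte-like and 17.2% lower in skeletal muscle-like barcodes.

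The added rule gave 10 classes and let 5 members be tested among 6296 genes. Among the classes left out as too small were mast cell-like barcodes (19 and 14) and T cell-like barcodes (8 and 5). Il1r1 was highest in blood endothelial-like barcodes, at 369 and 453 CPM, and it was 1.84 ± 0.27 above the other classes on the log2 scale (edgeR adjusted p = 2.86e-10, with 10.0% of genes called higher there). Smooth muscle and pericyte-like barcodes held 112 and 414 CPM of Il1r1, a log2 difference of 1.05 ± 0.37 (edgeR adjusted p = 0.0439, with 9.05% of genes called higher). Il1r1 was again higher in fibroblast-like and keratinocyte-like barcodes, by 1.11 ± 0.17 and 0.91 ± 0.24 on the log2 scale (edgeR adjusted p = 2.67e-10 and 8.95e-04). It was lower in macrophage and monocyte-like barcodes (-0.91 ± 0.32, edgeR adjusted p = 0.0222, with 6.37% of genes called lower) and in skeletal muscle-like ones (-1.56 ± 0.29, edgeR adjusted p = 4.81e-07, with 12.6% called lower). The accessory chain Il1rap had its highest log2 difference in fibroblast-like barcodes (1.76 ± 0.18, edgeR adjusted p = 1.73e-21) and was also called higher in keratinocyte-like ones (0.77 ± 0.28, edgeR adjusted p = 0.0346). It was lower in skeletal muscle-like barcodes (-1.02 ± 0.33, edgeR adjusted p = 0.00663) and in smooth muscle and pericyte-like ones, where 1 UMI was found in each library (-2.38 ± 0.80, edgeR adjusted p = 0.0291, with 2.51% of genes called lower). Il1r2 was highest in fibroblast-like barcodes, at 98.9 and 83.5 CPM, and keratinocyte-like ones, at 102 and 42.4 CPM. These levels were 3.41 ± 0.35 (edgeR adjusted p = 4.23e-21) and 2.96 ± 0.54 (edgeR adjusted p = 7.81e-07) above the other classes on the log2 scale, with 22.7% and 14.6% of genes called higher. Skeletal muscle-like barcodes, which share the free RNA of the libraries, held 10.2 and 0 CPM of Il1r2.

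The IL-33 receptor gene Il1rl1 stood highest in immune classes. It had 68.8 and 49.4 CPM in macrophage and monocyte-like barcodes (16 and 8 UMIs), with a log2 difference of 2.56 ± 0.59 from the other classes (edgeR adjusted p = 1.41e-04, with 16.0% of genes called higher). In Langerhans and dendritic-like barcodes it had 69.5 and 120 CPM, from 3 UMIs in each library (2.85 ± 1.00, edgeR adjusted p = 0.0470, with 6.69% of genes called higher). These values equal the floor of 3 counts, so the order of the 2 classes was not resolved. Il18 followed the same classes, with 139 and 80.1 CPM in Langerhans and dendritic-like barcodes and 43.0 and 55.6 CPM in macrophage and monocyte-like ones, and it was called higher in both as well as in fibroblast-like barcodes. Il1rn, which was not tested between classes, had its highest level in keratinocyte-like barcodes, at 27.4 and 24.2 CPM, from 7 of its 17 and 4 of its 12 UMIs, against 0.957 and 0.312 CPM in fibroblast-like barcodes. Il1a had 0 UMIs in every unwounded class.

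**Figure D3:**
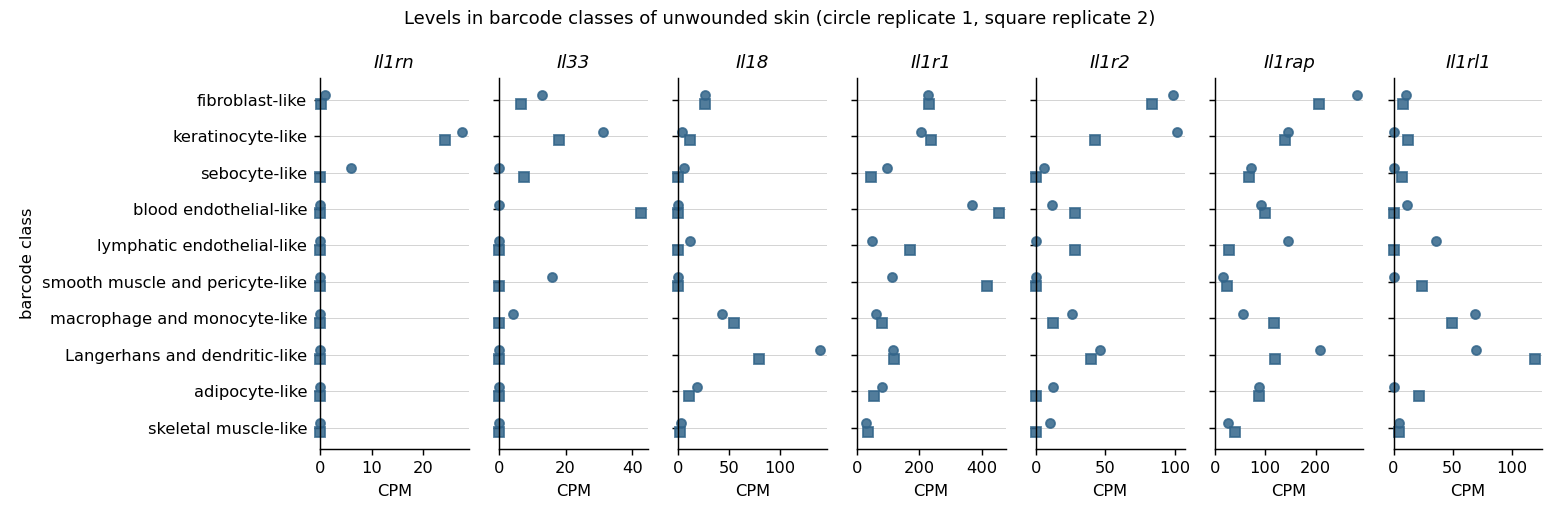
CPM of 7 of the genes in 10 barcode classes of unwounded skin under the added class rule, with circles for unwounded replicate 1 and squares for unwounded replicate 2. Il1rn is highest in keratinocyte-like barcodes, Il1r1 in blood endothelial-like barcodes, Il1r2 in fibroblast-like and keratinocyte-like barcodes, and Il18 in Langerhans and dendritic-like barcodes. Il1rl1 is highest in Langerhans and dendritic-like and macrophage and monocyte-like barcodes, whose order is not resolved.

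Across the 6 classes of the first rule, the genes whose pattern of mean log2(CPM + 1) was most like that of Il1r1 were Mta2 (Pearson r = 0.974), Sh3d19 (0.970) and Flot1 (0.969), out of 10379 genes. For Il1rap they were Sema4c (0.985), Flot1 (0.969) and Il1r1 (0.964), and for Il1rl1 they were Specc1 (0.999), Arhgap30 (0.997) and Fermt3 (0.997). Il1r2 was most like Sec23ip (0.997), Slc4a2 (0.989) and Mcrip1 (0.989), and Il18 like Enpp3 (0.995), Myof (0.988) and S100a11 (0.988). Over the 10 classes of the added rule, 0 of these genes recurred for the same member, so the lists depend on the class rule. Classes of one library share its mouse and its free RNA, and many genes reach high r over 6 points.

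Within the wounded libraries the levels varied with the number of genes per barcode. Il33 had 227 and 92.9 CPM in barcodes under 200 genes, which were not kept, 133 and 87.4 CPM from 200 to under 400 genes, and 50.8 and 59.5 CPM at 400 genes or more. Il1r1 ran the same way, at 259 and 201 CPM, 215 and 193 CPM, and 103 and 156 CPM. The receptor density on which length-expected levels rest ran the other way, with 0.399 and 0.431, 0.462 and 0.478, and 0.608 and 0.563 CPM per kb in the same bins. Il1r2 kept near length-expected in all bins, between 0.726 and 1.28 times. Il33 stood at 16.0 and 6.06 times the length-expected level of the bin under 200 genes. At 400 genes or more it stood at 2.35 and 2.97 times. For Il1r1 the ratios were 7.04 and 5.05 under 200 genes, and 1.84 and 3.01 at 400 genes or more.

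**Figure D4:**
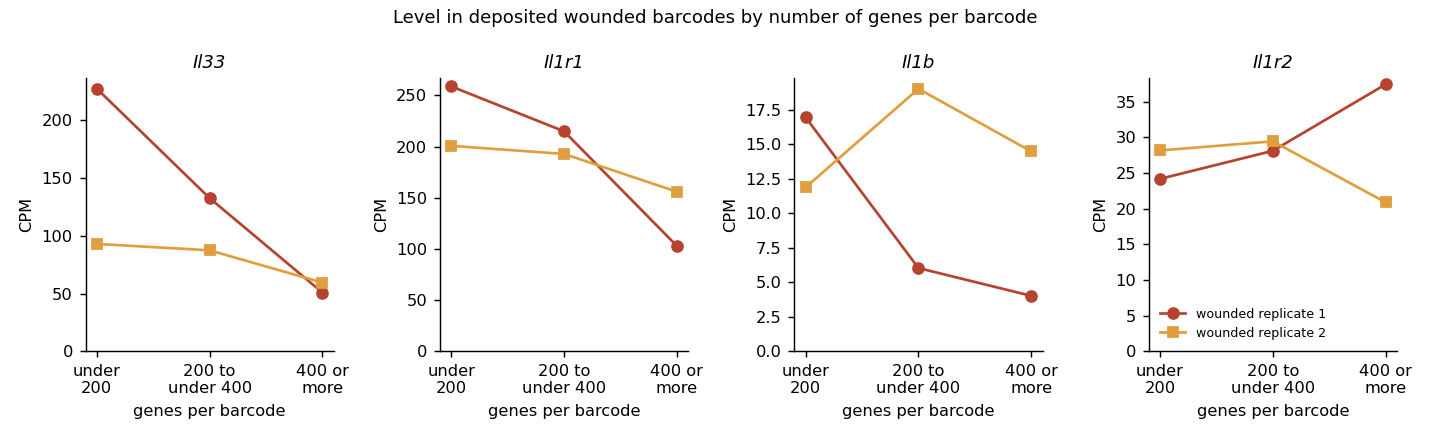
CPM of Il33, Il1r1, Il1b and Il1r2 in deposited barcodes of wounded replicate 1 (circles) and wounded replicate 2 (squares), split by genes per barcode. Il33 and Il1r1 are highest under 200 genes and lowest at 400 genes or more in both libraries.

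Other genes of the pathway came from lists of known ligands, receptors, processing genes, signalling genes and IL-1 targets, and their counts stand beside 47.0% of all genes called higher and 37.4% lower. Of the 5 other ligand genes in the files, 2 were tested and 0 were called by edgeR. Il1f5 (the IL-36 receptor antagonist) had 4.23 and 5.90 CPM in wounded and 1.33 and 2.01 CPM in unwounded libraries, and Il1f9 (IL-36 gamma) had 6.76 and 5.17 CPM in wounded and 1.33 and 2.32 CPM in unwounded libraries. Their raw p were 0.146 and 0.105 by edgeR's quasi-likelihood test, so 0 were under 0.05 unadjusted, and DESeq2 called 0 of the 5 genes.

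Of the 7 other receptor and inhibitor genes tested, 4 were higher and 2 lower, with a median log2 fold change of 1.02 against 0.39 over all genes. Il1rl2, the IL-36 receptor, fell to 28.7 and 30.3 CPM in wounded libraries, against 163 and 132 CPM in unwounded libraries. Il18bp, a soluble inhibitor of IL-18, was lower, at 0.846 and 1.48 CPM in wounded and 5.56 and 5.11 CPM in unwounded libraries. Il1rapl1 and Il1rapl2, long genes known from neurons, were called higher, but at 0.620 and 0.641, and 0.776 and 0.830, times length-expected. Il18r1 was the only one called higher that exceeded length-expected by over 2 times in both libraries, at 72.7 and 76.0 CPM in wounded and 16.7 and 25.8 CPM in unwounded libraries, and was chosen after its values were seen.

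Of 10 processing and release genes tested, 5 were higher and 4 lower, shares near those of all genes. Gsdmd, which codes for the pore through which IL-1 beta leaves cells, was lower, at 0.846 and 0.738 CPM in wounded and 20.7 and 17.5 CPM in unwounded libraries. Capn1 and Capn2, calpains known to cut IL-1 alpha, were lower. Nlrc4, an inflammasome sensor, was called higher, at 29.6 and 38.4 CPM in wounded and 3.02 and 3.10 CPM in unwounded libraries. Its wounded level was 1.59 and 2.24 times length-expected, below the 95th percentile of the nearly silent genes. Casp4 and Pycard were the genes called higher that exceeded length-expected by over 2 times in both libraries, and they were chosen after their values were seen. Casp4, an inflammatory caspase, had 254 and 340 CPM in wounded and 73.7 and 79.2 CPM in unwounded libraries, at 16.5 and 24.0 times length-expected. Pycard, the inflammasome adaptor, had 25.4 and 19.2 CPM in wounded and 4.96 and 2.79 CPM in unwounded libraries.

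Of 16 receptor-proximal signalling genes, all tested, 2 were higher and 11 lower, with a median log2 fold change of -1.97. Tab2, Irak1 and Ikbkb were the lower genes of smallest p, for example Tab2 at 34.7 and 25.1 CPM in wounded and 131 and 120 CPM in unwounded libraries. Irak2, an IRAK kinase, was higher, at 198 and 187 CPM in wounded and 35.6 and 31.1 CPM in unwounded libraries, and at 6.35 and 6.50 times length-expected. The other higher gene was Irak4, named after its values were seen.

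Of 17 IL-1-inducible genes tested, 8 were higher, a share near that of all genes, and 5 were lower, with a median log2 fold change of 1.28 against 0.39 over all genes. Cxcl2, a neutrophil chemokine, had 31.3 and 34.7 CPM in wounded and 0.242 and 0.155 CPM in unwounded libraries, at 27.5 and 33.0 times length-expected. Cxcl5, another neutrophil chemokine, had 18.6 and 50.2 CPM in wounded and 0 and 0.155 CPM in unwounded libraries. Ptgs2, the prostaglandin enzyme COX-2, had 17.8 and 46.5 CPM in wounded and 0.484 and 0.774 CPM in unwounded libraries. Icam1, an adhesion molecule, was lower, at 14.4 and 20.7 CPM in wounded and 51.6 and 47.8 CPM in unwounded libraries. Of the 8 higher genes, 7 exceeded length-expected by over 2 times in both wounded libraries. These genes answer to other signals as well, and induction by IL-1 was not measured here.

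**Figure D5:**
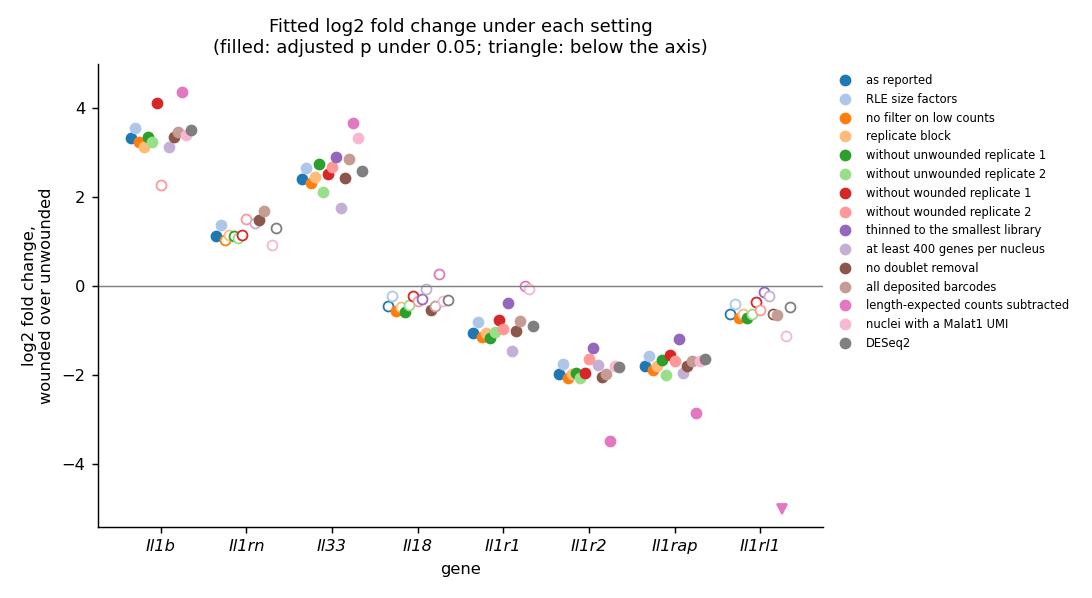
Fitted log2 fold change, wounded over unwounded, of the 8 tested genes under each setting; filled symbols passed an adjusted p under 0.05. Il33 stays above 0 and filled, Il1r2 and Il1rap stay below 0 and filled, and Il18 and Il1r1 reach or cross 0 under at least 1 setting. The triangle for Il1rl1 stands for -8.70 after subtraction, where its wounded counts became 0.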

How the data were processed

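Single-nucleus RNA of 4 libraries, 1 per mouse, was analysed, with group and replicate number read from the sample titles. The authors deposited raw UMI counts per gene and barcode, and the submitters' processing notes name Cell Ranger 5.0.1 and GRCm38. The treatment of intronic reads is not given in the sources used here. Members and gene lists were chosen with earlier results of these data known. Deposited matrices held 4635 and 18026 wounded and 6965 and 9840 unwounded barcodes.

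Barcodes under 200 genes or over 5% mitochondrial UMIs were dropped. Scrublet (scanpy 1.11.5) marked 0 nuclei in each library, which is under the 0.5% taken as a working minimum, so the top-scoring nuclei were taken out instead, 0.8% for every 1000 barcodes of the library. Median UMIs per nucleus were 358 and 303 in wounded and 907 and 469 in unwounded libraries.

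Counts were summed per library and tested with edgeR 4.0.16 in R 4.3.3 (filterByExpr, TMM scaling, glmQLFit and glmQLFTest, Benjamini-Hochberg over all genes tested, threshold 0.05), a step also tested on simulated data. The same test was run on sums per class and library, with library as a term between classes and in the test of the difference of effects. With 2 libraries a group, an exact permutation test has a smallest p of 0.333, so none was run. DESeq2 1.42.0, other scalings, filters, class rules and left-out libraries were alternatives. Replicates differed by more than sampling noise (chi-square per gene 2.14 between wounded and 12.5 between unwounded libraries). Gene spans came from GENCODE vM21, which matched 32235 of 32285 genes. Length-expected CPM used 1468 olfactory and vomeronasal receptor genes. The text names all members, up to 4 genes of smallest p per list, and up to 3 genes of most similar class pattern for members reaching 20 CPM in a class (the list for Il1rn is not reported here). Genes outside this rule are marked as chosen after their values were seen, apart from Malat1 and Il1bos, named as checks. UMIs were treated as molecules, so floors of 3 counts cover counting error only.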

Additional observations from a re-analysis of the deposited data

Results flagged for a closer look

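Wounded barcodes under 200 genes, 2250 and 13696 in replicates 1 and 2, were not among the kept nuclei and entered the comparison of the groups in 1 alternative alone, that of all deposited barcodes. In them 3 members stood above the kept nuclei of both unwounded libraries while also exceeding length-expected by over 2 times. Il33 had 227 and 92.9 CPM there, against 10.6 and 6.35 CPM in the kept unwounded nuclei. Il1b had 16.9 and 11.9 CPM, from 7 and 24 UMIs, against 0.726 and 0.619 CPM. Il1r1 had 259 and 201 CPM, against 189 and 193 CPM. Few unwounded barcodes lay under 200 genes, 1 and 69, and in those Il33 and Il1b had 0 UMIs, whereas Il1r1 had 0 UMIs in replicate 1 and 341 CPM (9 UMIs) in replicate 2, above both wounded values.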

How the results depend on the processing

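Over all nuclei, 3 members were called higher and 3 lower. Higher calls numbered 1 after thinning to the smallest library, and lower calls 5 without the filter on low counts. Leaving out 1 library gave 1 to 2 higher and 3 to 5 lower, with 1 higher without wounded replicate 2 (Il1b and Il1rn lost) and 5 lower without unwounded replicate 1 (Il18 and Il1rl1 gained). With a replicate block, 2 were higher and 3 lower, Il1rn losing its call (log2 fold change 1.15, edgeR adjusted p = 0.0961). Differences between replicates 1 and 2 correlated at 0.00376 between the groups over 20915 genes. No pairing by replicate number was thus detected, though this correlation cannot exclude one. After length-expected counts were subtracted, Il18 turned to 0.28 and Il1r1 to 0.0089. Over all genes 9828 were higher and 7829 lower, against 5412 and 6718 after subtraction, 5888 and 6462 in nuclei with a Malat1 UMI, and 8475 and 5077 after thinning.

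In keratinocyte-like barcodes 0 members were called higher, against 1 (Il33) with DESeq2 and 1 with the added class rule, and 0 to 1 with a library left out. Il1r1 there turned to -0.42 with DESeq2, -0.057 after subtraction, -0.10 without doublet removal and -0.40 with the added rule, and ranged from -0.50 to 0.52 with a library left out. In fibroblast-like barcodes the 1 higher call was 0 whichever library was left out. The 1 lower call, Il1r2, was 0 with RLE size factors, the replicate block, DESeq2, subtraction, and whichever library was left out. Il1r1 turned to 0.095 with RLE and 0.17 with the added rule, and ranged from -1.30 to 0.12 without a wounded library, and Il1rl1 from -7.87 to 1.76. Between unwounded classes, 4 higher and 2 lower calls became 13 and 4 with the added rule, where more members were tested. The difference of the wound effect of Il1rap turned to 0.73 with the added rule. Other causes were not tested. Wounded depth limits Il1a, Il1b, Il1rn and all class levels, which rest on few UMIs.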

Other observations

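Il1b and Il33 lie on different chromosomes and differed in how their wounded UMIs were spread. Il33 was found in 82 and 96 kept wounded barcodes, with up to 5 and 3 UMIs in 1 barcode, whereas Il1b was found in 6 and 25. Of the wounded barcodes with an Il33 UMI, 46 and 34 held a fibroblast marker UMI and 18 and 31 a keratinocyte marker UMI. Among all kept wounded nuclei, 29.0% and 26.4% held a fibroblast marker UMI and 24.2% and 28.3% a keratinocyte marker UMI. Barcodes with an Il33 UMI were deeper, with medians of 458.5 and 334.5 UMIs against 358 and 303 in all kept wounded nuclei, and no test was made of these shares.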
